A study of Mus musculus with 70 samples.

Results

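Of the 1882 miRNA features in small RNA libraries of the mouse brain, 7 were followed across microglia and the cells surrounding them. These were the mature arms mmu-miR-128-3p, mmu-miR-129-5p, mmu-miR-129-2-3p, mmu-miR-137-3p, mmu-miR-138-5p, mmu-miR-153-3p and mmu-miR-218-5p, named here without the prefix for mouse. They were chosen by name as miRNAs known from neurons. All 7 were found in the count table and all 7 passed the filter on low counts. The mice were untreated C57Bl/6 animals of both sexes taken on postnatal day 6 (P6), on day 15 (P15) or at an age of 8 weeks (8W). Each whole brain gave a microglial library, from CD45-positive cells captured on an antibody-coated dish (immunopanning), and a library of the CD45-negative bulk cells that remained, a mixture of neurons, glia and vascular cells. CD45 is also carried by monocytes and other leukocytes, so the microglial fraction was defined by a surface marker shared with these cells. The comparisons used 68 libraries of 34 mice, with 10 mice at P6 (4 female and 6 male), 12 at P15 and 12 at 8W (6 of each sex at both ages).

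A mature miRNA guides an Argonaute protein to messenger RNAs that pair with its seed, the bases 2 to 8 from its 5′ end, and lowers the output of those messages. Neurons carry a set of miRNAs at high levels, of which miR-124 is the most abundant. The miRNAs followed here are known from neurons. That does not make them specific to neurons, and which of the bulk cells held them was not measured. miR-128 restrains neuronal excitability, miR-129 takes part in the scaling of synaptic strength, miR-137 acts in neuronal maturation and at synapses, miR-138 limits the growth of dendritic spines, miR-153 targets proteins of synaptic vesicle release, and miR-218 is best known from motor neurons.

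The mature sequences, from RefSeq on the build GRCm38.p6, are shown because the 7 miRNAs, grouped by the cell they are known from, share no seed. They are written 5′ to 3′ with the seed in capitals.
miR-128-3p: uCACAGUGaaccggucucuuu
miR-129-5p: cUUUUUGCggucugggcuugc
miR-129-2-3p: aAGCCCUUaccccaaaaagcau
miR-137-3p: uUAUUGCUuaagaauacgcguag
miR-138-5p: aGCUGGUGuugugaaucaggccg
miR-153-3p: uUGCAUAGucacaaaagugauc
miR-218-5p: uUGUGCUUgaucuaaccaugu
All 7 seeds were distinct. Among the 1544 of 1823 annotated names in the table that could be matched to a RefSeq sequence, a member's seed recurred outside the set only in miR-7002-3p, which has the seed of miR-218-5p. That miRNA reached at most 0.888 CPM, the count scaled to a common library total, and was not tested.

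The genomic positions on GRCm38 set limits on what can be told apart. miR-128-3p is encoded at chr1:128202404-128202424 in an intron of R3hdm1 and at chr9:112118644-112118664 in an intron of Arpp21, on the strand of the host gene in both cases. miR-218-5p is encoded at chr5:48223966-48223986 in an intron of Slit2 and at chr11:35616840-35616860 in an intron of Slit3, the genes of secreted axon guidance ligands. miR-138-5p lies at chr9:122682898-122682920 in an exon of the transcribed pseudogene Gm47135 and at chr8:94324312-94324334 in an exon of the long noncoding RNA C78859. miR-129-5p lies at chr6:29022624-29022644 in an exon of the long noncoding RNA Gm3294 and at chr2:94241419-94241439 in an intron of the long noncoding RNA Mir670hg. As the mature sequence of each of these 4 miRNAs can come from either locus, its count does not show which locus was used. The remaining members have a single locus each. miR-129-2-3p is the opposite arm of the Mir129-2 hairpin at chr2:94241376-94241397, miR-137-3p lies at chr3:118433901-118433923 in an exon of the noncoding transcript Gm26871, and miR-153-3p lies at chr12:117250860-117250881 in an intron of Ptprn2, which encodes a protein of secretory vesicles.

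Total counts ranged from 1678034 to 8747394 over the 68 libraries, and each member held between 137 and 102260 counts in a library, so counting error was small beside the spread between mice. The fractions were checked against miRNAs of other cells. The summed level of 4 myeloid miRNAs (both arms of miR-142a, miR-223-3p and miR-146a-5p) averaged 24006, 41561 and 47383 CPM in microglia at P6, P15 and 8W, against 280, 743 and 512 CPM in bulk cells. Both arms of miR-124 summed to 23972, 20406 and 19600 CPM in microglia and to 67115, 84159 and 120164 CPM in bulk cells. miR-124 was thus measured in every microglial library, and the astrocyte and progenitor miRNA miR-9 also summed to between 26947 and 204911 CPM there. No marker of any of the 7 cell type lists was at 0 in a group. In such sorted fractions, fewer neurons or neuronal fragments and less of a miRNA per cell cannot be told apart.

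The first comparison asked how the members were distributed between microglia and the bulk cells of the same brains. All 7 were lower in microglia at all 3 ages. The fall was between 3.02-fold (miR-128-3p at P15) and 6.94-fold (miR-129-2-3p at 8W). The summed members made up 0.608% ± 0.122 (SD, n = 10) of a microglial library at P6, 0.640% ± 0.154 (n = 12) at P15 and 0.668% ± 0.1999 (n = 12) at 8W. In bulk cells the shares were 2.30% ± 0.688, 3.38% ± 0.256 and 3.26% ± 0.259.

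**Figure D1:**
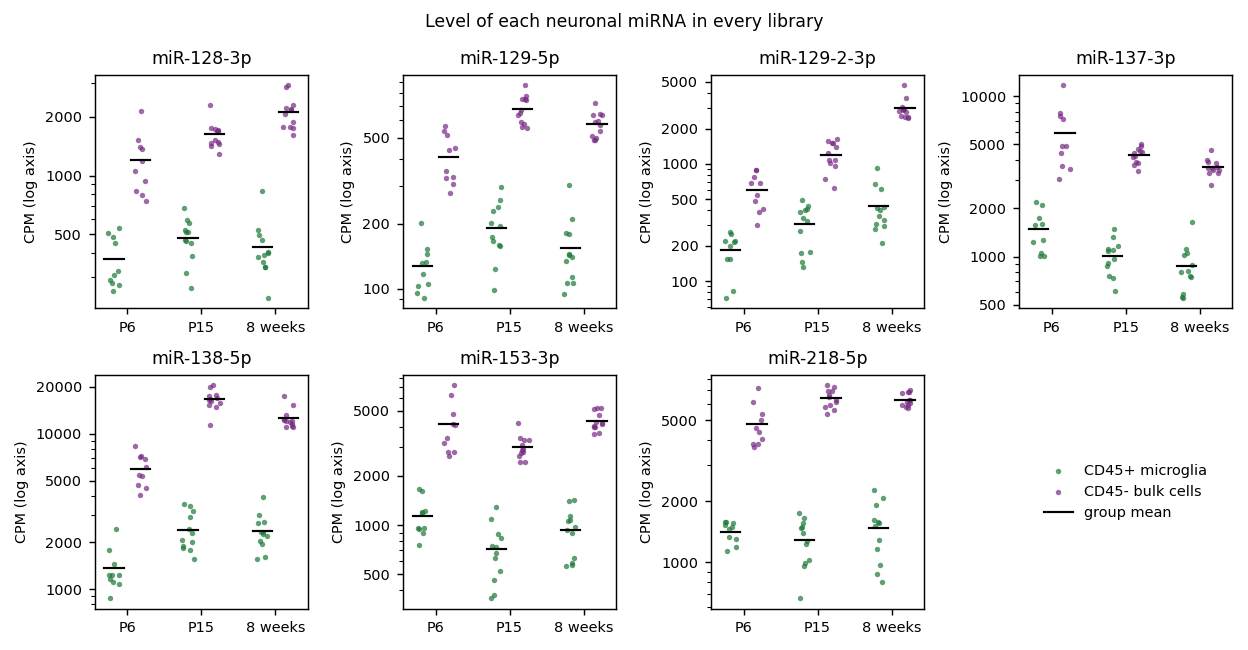
Level of each of the 7 neuronal miRNAs in every library, in CPM on a log axis, at P6 (n = 10 mice), P15 and 8 weeks (n = 12 each). Points are libraries, green for microglia and purple for bulk cells, and black lines are group means. At each age the microglial and the bulk points of a miRNA do not overlap.

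miR-138-5p, the member that limits spine growth, was the most abundant of the set in bulk cells at P15 and 8W. In bulk cells its level had a minimum, median and maximum of 4055, 5792 and 8375 CPM at P6, 11294, 16619 and 20412 CPM at P15, and 10993, 12098 and 17577 CPM at 8W. In microglia it ran from 877 over a median of 1235 to 2453 CPM at P6, from 1554 over 2187 to 3512 CPM at P15, and from 1571 over 2301 to 3914 CPM at 8W. The lowest bulk library lay above the highest microglial library at every age. The log2 fold change in microglia was -2.26 ± 0.14 (SE) at P6, -2.61 ± 0.12 at P15 and -2.37 ± 0.12 at 8W (limma TREAT, adjusted p = 4.83e-12, 2.49e-19 and 2.25e-16).

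miR-218-5p, hosted by the Slit genes, was second in abundance at P15 and 8W. In bulk cells it spanned 3685 to 7189 CPM at P6 (median 4464), 5340 to 7409 CPM at P15 (median 6401) and 5728 to 7069 CPM at 8W (median 6223). In microglia it spanned 1140 to 1574 CPM (median 1475), 667 to 1749 CPM (median 1327) and 798 to 2279 CPM (median 1539). Its bulk level at 8W was the steadiest of all members, with a coefficient of variation of 7.30%. Relative to bulk cells the log2 fold change was -1.81 ± 0.14 at P6, -2.15 ± 0.12 at P15 and -2.10 ± 0.12 at 8W (limma TREAT, adjusted p = 1.14e-06, 1.62e-12 and 2.67e-12).

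miR-137-3p, a miRNA of neuronal maturation, was the only member whose mean CPM was highest at P6 in both fractions. Bulk libraries held 3040 to 11690 CPM at P6 (median 4871), 3402 to 4998 CPM at P15 (median 4319) and 2784 to 4603 CPM at 8W (median 3554). Microglial libraries held 1005 to 2196 CPM (median 1419), 606 to 1488 CPM (median 1027) and 553 to 1649 CPM (median 807). A single P6 bulk library, of female mouse 5, set the upper end at P6. Between fractions it changed by a log2 fold of -1.99 ± 0.17, -1.91 ± 0.15 and -2.03 ± 0.15 at P6, P15 and 8W (limma TREAT, adjusted p = 5.69e-07, 3.29e-07 and 8.59e-09).

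miR-153-3p, whose targets include vesicle release proteins, had its lowest mean at P15 in both fractions. Its bulk level had a median of 3746 CPM at P6 (2653 to 7162), 2909 CPM at P15 (2428 to 4246) and 4194 CPM at 8W (3619 to 5231). Its microglial level had a median of 1076 CPM (757 to 1674), 704 CPM (357 to 1282) and 958 CPM (563 to 1428). The age groups overlapped on the CPM scale within each fraction, whereas the fractions did not overlap at any age. Its log2 fold change between fractions was -1.90 ± 0.18, -1.96 ± 0.16 and -2.21 ± 0.16 (limma TREAT, adjusted p = 1.37e-05, 3.89e-07 and 2.67e-10).

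miR-128-3p, the regulator of excitability, had bulk medians of 1119 CPM at P6 (743 to 2141), 1612 CPM at P15 (1292 to 2310) and 2122 CPM at 8W (1611 to 2915). Its microglial medians were 316 CPM (256 to 535), 489 CPM (263 to 679) and 396 CPM (235 to 836). The gap between the highest microglial and the lowest bulk library was narrow at P6, but they did not overlap. Between fractions the log2 fold change was -1.75 ± 0.17, -1.59 ± 0.15 and -2.28 ± 0.15 (limma TREAT, adjusted p = 0.000136, 0.000354 and 6.71e-12).

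The arms of miR-129 were the least abundant members at P6 and P15. miR-129-5p had bulk medians of 393 CPM (278 to 568.1), 659 CPM (552 to 873) and 579 CPM (485 to 724) at P6, P15 and 8W. Its microglial medians were 124 CPM (91.0 to 202), 184 CPM (99.3 to 297) and 142 CPM (94.5 to 301). miR-129-5p was the lowest member by mean CPM in every group of age and fraction. Its log2 fold change between fractions was -1.73 ± 0.16, -1.66 ± 0.14 and -1.89 ± 0.14 (limma TREAT, adjusted p = 0.000114, 3.11e-05 and 5.04e-08).

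miR-129-2-3p had bulk medians of 613 CPM at P6 (301 to 890), 1159 CPM at P15 (627 to 1625) and 2854 CPM at 8W (2440 to 4686). Its microglial medians were 208 CPM (72.0 to 261), 334 CPM (132 to 495) and 381 CPM (210 to 913). All bulk libraries at 8W lay above those at P15, as was found for 4.76% of all features, and the microglial libraries spread the most of all members, with a coefficient of variation of 46.1% at 8W. The log2 fold change between fractions was -1.79 ± 0.22, -1.82 ± 0.19 and -2.80 ± 0.18 (limma TREAT, adjusted p = 0.00169, 0.000109 and 4.92e-14).

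Each test asked whether a level differed by more than a log2 fold change of 1, that is 2-fold, at a false discovery rate of 0.05. By it 7 of 7 members were lower in microglia at each age, where 10.6%, 18.7% and 23.7% of the 1072 features tested were lower at P6, P15 and 8W. edgeR with the same threshold also called 7 of 7 at each age, where it called 30.9%, 44.7% and 52.8% of all features in either direction, and DESeq2 called 7 of 7, where it called 22.3%, 35.4% and 42.4%. The groups' CPM ranges were apart for 7 of 7 members at each age, against 10.2%, 16.6% and 21.5% of all features. Every one of the 34 mice had less of each member in its microglial than in its bulk library, with microglial levels between 8.37% and 57.4% of the bulk level of the same brain. The median log2 fold change of the members was -1.81, -1.91 and -2.21 at P6, P15 and 8W, beside 0.25, 0.28 and -0.10 over all features. The summed level of miR-124, used here as the neuronal marker, was also lower in microglia. The authors list miR-124 among the highly expressed microglial miRNAs that earlier work tied to microglial identity. Markers of other cells differed in both directions. The endothelial miR-126a-3p was 10.8-, 9.78- and 5.04-fold lower at P6, P15 and 8W, and the oligodendrocyte miR-219a-5p 3.81-, 14.98- and 31.3-fold lower (limma TREAT, called at each age). miR-338-3p of the same oligodendrocyte list was 2.16-, 7.30- and 10.6-fold lower and missed the test at P6 (limma TREAT, adjusted p = 0.440). All 3 erythroid miRNAs were higher in microglia at each age, among them miR-451a by 7.94-, 11.5- and 5.78-fold. Neither arm of miR-9 and none of the 3 mural and fibroblast miRNAs passed the test at any age. The part of these markers in the members' difference was not tested.

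**Figure D2:**
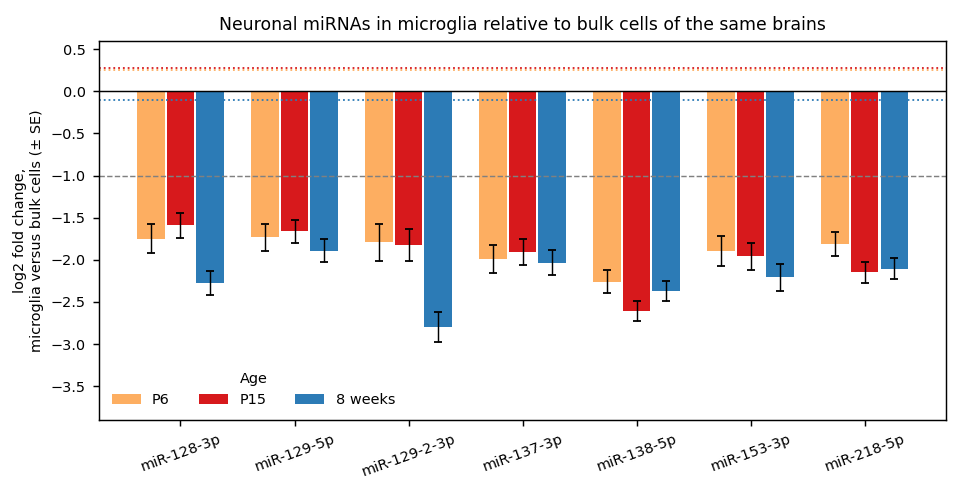
Log2 fold change of each member in microglia relative to bulk cells at P6, P15 and 8 weeks, with bars for the estimate and error bars for its SE. Dotted lines are the medians over all 1072 features at each age (0.25, 0.28 and -0.10), and the dashed line at -1 is the threshold of the test. All 21 bars lie below the threshold, from -1.59 to -2.80.

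The order of the members by mean CPM was the same in both fractions at P15 and at 8W, although in 8W microglia miR-129-2-3p and miR-128-3p had nearly equal means (436 and 431 CPM), with 6 of 12 libraries in that order and the medians in the reverse order. At 8W it ran, in bulk cells, from miR-138-5p (mean 12638 CPM) over miR-218-5p (6315 CPM), miR-153-3p (4359 CPM), miR-137-3p (3609 CPM), miR-129-2-3p (2976 CPM) and miR-128-3p (2130 CPM) to miR-129-5p (576 CPM). The ranges of miR-138-5p and miR-218-5p were apart, as were those of miR-218-5p and miR-153-3p and those of miR-128-3p and miR-129-5p, whereas the other neighbours overlapped. At P6 the 4 most abundant members in bulk cells, miR-138-5p, miR-137-3p, miR-218-5p and miR-153-3p, had means of 5965, 5865, 4797 and 4137 CPM, and neighbours among them overlapped. In P6 microglia the same 4 members lay between 1142 and 1478 CPM, again with overlapping neighbours. Ligation and amplification can differ between sequences, so an order across miRNAs is an order of read counts.

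The second comparison followed the members over development within bulk cells. Between P6 and 8W, miR-129-2-3p rose 6.36-fold and miR-138-5p rose 2.68-fold, and for both the 8W libraries lay above all P6 libraries, as they did for 9.61% of all features. On the log2 scale the change was 2.67 ± 0.20 (SE) for miR-129-2-3p and 1.42 ± 0.13 for miR-138-5p (limma TREAT, adjusted p = 4.49e-11 and 0.00449). Thus 2 of 7 members were called higher, where 13.2% of all features were, and 0 of 7 were called lower, where 12.4% were. The call for miR-138-5p was lost in DESeq2 (log2 fold change 1.35, adjusted p = 0.0634) and with scaling by library size alone (1.11, adjusted p = 0.534).

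The other members stayed below the 2-fold test in bulk cells. The log2 fold change from P6 to 8W was 1.21 ± 0.16 for miR-128-3p (adjusted p = 0.271), 0.87 ± 0.15 for miR-129-5p, 0.74 ± 0.13 for miR-218-5p, 0.48 ± 0.17 for miR-153-3p and -0.25 ± 0.16 for miR-137-3p. miR-128-3p depended on the bulk library of P6 female mouse 5, the highest of its group, since without that mouse its log2 fold change was 1.45 and passed the test (limma TREAT, adjusted p = 0.00507). miR-137-3p turned from -0.25 to 0.04 without the same mouse. Tested against no change in place of 2-fold, 6 of 7 members were higher at 8W, miR-137-3p being the exception, where 66.2% of all features differed in either direction. Summed oligodendrocyte miRNAs (miR-219a-5p, miR-219a-2-3p and miR-338-3p) went from 1899 to 26338 CPM and miR-124 from 67115 to 120164 CPM in bulk cells over the same interval, while miR-9 went from 292971 to 85927 CPM. On the TMM scale of the members the log2 fold change was 1.199 ± 0.16 for miR-124-3p and -1.17 ± 0.21 for miR-124-5p, and both missed the test. The part of these markers in the members' changes was not tested.

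miR-138-5p had its highest bulk mean at P15, with 16593 ± 2357 CPM (SD, n = 12) after 5965 ± 1394 CPM (n = 10) at P6 and before 12638 ± 1946 CPM (n = 12) at 8W. All 12 P15 libraries lay above all P6 libraries, as for 3.26% of all features, and the log2 fold change of 1.34 ± 0.13 missed the test (adjusted p = 0.119). From P15 to 8W its log2 fold change was 0.08 ± 0.12, and that estimate was negative with DESeq2, with DESeq2 size factors, with library size alone and with its rows summed. miR-129-2-3p had its highest bulk mean at 8W, and from P15 to 8W its log2 fold change was 1.82 ± 0.19 (limma TREAT, adjusted p = 0.000318), although this call was lost with library size alone (1.35, adjusted p = 0.217).

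Between P6 and P15, 0 of 7 members were called in bulk cells by limma TREAT, where 3.54% of all features were. miR-138-5p alone had an unadjusted p below 0.05, and edgeR and DESeq2 also called 0 of 7. Its call appeared under 4 other settings, with log2 fold changes between 1.42 and 1.497, and when any of 15 mice was left out. Against no change, miR-129-5p, miR-129-2-3p and miR-138-5p were higher at P15 and miR-137-3p and miR-153-3p lower, where 38.8% of all features differed. The lower estimates depended on single mice. With mice left out that of miR-137-3p ran from -0.52 to -0.15 and that of miR-153-3p from -0.55 to -0.24. Between P15 and 8W, miR-129-2-3p was the only member called higher, where 6.06% of all features were, and 0 of 7 were lower, where 4.94% were. Against no change, miR-128-3p, miR-129-2-3p, miR-153-3p and miR-218-5p were higher at 8W than at P15, where 50.7% of all features differed, although with library size alone the estimate of miR-218-5p turned to -0.017.

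**Figure D3:**
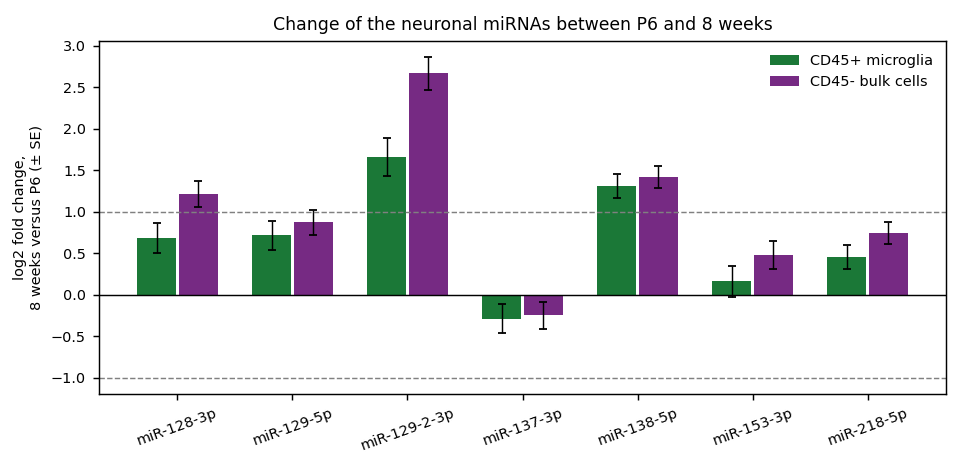
Log2 fold change of each member from P6 to 8 weeks in microglia (green) and in bulk cells (purple), with error bars for the SE and dashed lines at the threshold of 1 in either direction. miR-129-2-3p reaches 2.67 in bulk cells and 1.67 in microglia, and miR-137-3p lies below 0 in both.

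From P6 to 8W the estimates in microglia had the same sign for each member as in bulk cells, except that with library size alone those of miR-153-3p (-0.30) and miR-218-5p (-0.011) and, with P6 female mouse 6 included, that of miR-153-3p (-0.011) turned negative, and that without P6 female mouse 5 the bulk estimate of miR-137-3p was positive (0.041). miR-129-2-3p rose 3.17-fold, with a log2 fold change of 1.67 ± 0.23 (limma TREAT, adjusted p = 0.0180). It was the only member called higher, where 7.18% of all features were, and 0 of 7 were called lower, where 9.42% were. Its groups were apart on the TMM-scaled log2 axis but overlapped in CPM, and the call was lost without 8W male mouse 3, the highest microglial library of its group (1.56, adjusted p = 0.050), and with library size alone (1.196, adjusted p = 0.589).

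miR-138-5p followed at a log2 fold change of 1.31 ± 0.15 and missed the test (adjusted p = 0.0969). edgeR called it (adjusted p = 0.0242), as did limma when any of 17 mice was left out. The remaining members lay between -0.29 (miR-137-3p) and 0.72 (miR-129-5p). Tested against no change, 5 of 7 members were higher at 8W, where 53.9% of all features differed, and of these miR-218-5p turned negative with library size alone (-0.011). From P6 to P15 and from P15 to 8W, limma TREAT called 0 of 7 members, with 0 at an unadjusted p below 0.05 and 0 of 7 in edgeR and DESeq2, where limma called 2.89% and 4.57% of all features. Against no change, 4 members were higher and 1 lower from P6 to P15 and 4 were higher from P15 to 8W, where 34.1% and 37.2% of all features differed. From P6 to 8W the log2 fold change in microglia, on the TMM scale of the members, was 0.09 ± 0.18 for miR-124-3p and -2.94 ± 0.30 for miR-124-5p, of which the latter passed the test. In unscaled CPM the summed miR-124 went from 23972 to 19600, miR-9 from 158411 to 49145 and the oligodendrocyte miRNAs from 746 to 1848. The part of these markers in the members' changes was not tested.

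Whether the developmental change differed between the fractions was tested as an interaction. 0 of 7 members were called by limma TREAT, with 0 at an unadjusted p below 0.05 and 0 of 7 in edgeR and DESeq2, where limma called 14.6% of all features. The difference of the log2 fold changes, microglia minus bulk cells, ran from -1.004 ± 0.28 for miR-129-2-3p over -0.53 ± 0.22 for miR-128-3p to -0.04 ± 0.22 for miR-137-3p, beside a median of -0.49 over all features. Against no change the interaction was called for miR-129-2-3p (limma, adjusted p = 0.00219) and miR-128-3p (adjusted p = 0.0413), where 53.6% of all features were. Both estimates were lower in microglia than in bulk cells.

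Male and female mice were compared within each fraction over the pooled ages. The log2 fold change of the members lay between -0.14 (miR-218-5p) and 0.09 (miR-129-2-3p) in bulk cells and between -0.16 (miR-129-2-3p) and 0.16 (miR-138-5p) in microglia. limma TREAT called 0 of 7 members in each fraction and 0.00% of all features. For the members the unadjusted p was below 0.05 in 0 cases, also against no change, and edgeR and DESeq2 called 0.

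The 5p arm and one 3p arm of miR-129 were both members, and their counts were compared within each library. The miR-129-5p sequence is made from both loci and miR-129-2-3p from Mir129-2 alone. In bulk cells a count of miR-129-5p was matched by 0.927 to 2.07 counts of miR-129-2-3p at P6 (median 1.49), 0.967 to 2.80 at P15 (median 1.54) and 3.46 to 8.74 at 8W (median 5.15). In microglia the ratio was 0.752 to 2.09 at P6 (median 1.48), 0.909 to 2.36 at P15 (median 1.46) and 1.56 to 4.04 at 8W (median 2.98). The P6 and P15 libraries overlapped in both fractions, and at 8W every bulk library lay above every bulk library of the earlier ages. In microglia the 8W range overlapped the others.

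The mean log2 ratio rose by 1.84 from P6 to 8W in bulk cells and by 1.005 in microglia. A two-sided permutation test with 100000 resamples, chosen after the values were seen, gave p = 2e-05 in bulk cells, the smallest these resamples can give, and p = 8e-05 in microglia. As a ratio within a library, it does not depend on the scaling between libraries. miR-129-1-3p, the 3p arm of the other hairpin, also rose against miR-129-5p, from a mean ratio of 0.248 ± 0.067 (SD) at P6 to 1.32 ± 0.206 at 8W in bulk cells. The deposited counts list miR-129-5p under both precursors with nearly the same total, so reads of the 5p arm could not be divided between the hairpins.

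**Figure D4:**
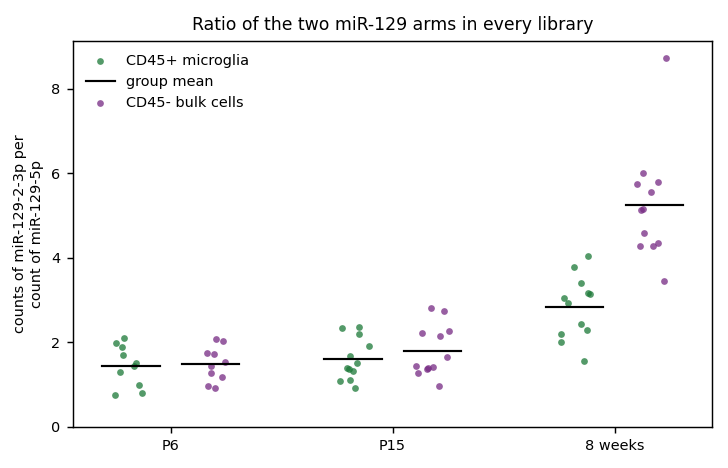
Counts of miR-129-2-3p per count of miR-129-5p in every library at P6 (n = 10), P15 and 8 weeks (n = 12 each), on a linear axis from 0. Points are libraries, green for microglia and purple for bulk cells, and black lines are group means. The mean is 1.49 in P6 and 5.26 in 8-week bulk libraries, and 1.44 and 2.83 in microglia.

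Of 9 other arms of the members' hairpins with a row of counts, 8 passed the filter, while miR-128-2-5p never exceeded 11 counts. Their bulk means at 8W ran from 3.70 CPM for miR-137-5p to 754 CPM for miR-129-1-3p, and apart from the latter each lay below every member. At P6, P15 and 8W, 2, 6 and 7 of these 8 arms were lower in microglia, where 10.6%, 18.7% and 23.7% of all features were. The strongest fall was that of miR-138-1-3p at 8W, with a log2 fold change of -3.23 ± 0.17 (limma TREAT, adjusted p = 8.17e-19), from 80.3 ± 12.3 CPM (SD, n = 12) in bulk cells to 8.28 ± 3.06 CPM in microglia.

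In bulk cells 5 of the 8 arms were higher at 8W than at P6, where 13.2% of all features were, and 0 were lower, where 12.4% were. They were miR-129-1-3p (log2 fold change 3.27 ± 0.19), miR-218-2-3p (2.73 ± 0.26), miR-138-2-3p (2.54 ± 0.25), miR-138-1-3p (2.13 ± 0.15) and miR-153-5p (1.91 ± 0.22). In each case the estimate lay above that of the member from the same hairpin, a difference that was not tested. The 3p arms of miR-138 and miR-218 are specific to a locus, unlike the 5p arms. miR-218-1-3p, from Slit2, had a log2 fold change of 0.43 ± 0.24 that missed the test, whereas miR-218-2-3p, from Slit3, went from 4.31 ± 2.64 CPM at P6 (n = 10) to 20.2 ± 3.58 CPM at 8W (n = 12; limma TREAT, adjusted p = 5.87e-08). miR-138-1-3p rose early, from 23.8 CPM at P6 to 131 CPM at P15 and 80.3 CPM at 8W, while miR-138-2-3p went from 3.94 over 8.40 to 16.4 CPM. Whether the members of such a pair differed in their change was not tested.

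A further list of 11 arms of miRNAs known from neurons (both arms of miR-124, miR-132-3p, miR-212-3p and 7 others) was compared in the same way. At P6, P15 and 8W, 5, 9 and 11 of the 11 were lower in microglia, where 10.6%, 18.7% and 23.7% of all features were, and 0 were higher. The arm nearest to no difference was miR-124-5p at P6, with a log2 fold change of -0.10 (limma TREAT, adjusted p = 1) and a microglial level that averaged 102% of the bulk level and was lower in 4 of 10 mice. The median log2 fold change was -1.27, -1.59 and -2.38. At 8W the values ran from -2.80 (miR-132-3p) to -1.67 (miR-488-3p). In bulk cells from P6 to 8W, 3 of 11 rose, where 13.2% of all features did, and 1 fell, where 12.4% did, from a log2 fold change of 4.14 for miR-132-3p, a miRNA induced by neuronal activity, to -1.40 for miR-488-3p. For 3 of the 11 the change differed between fractions, where 14.6% of all features were called.

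In microglia, libraries of a group that were high in one member tended to be high in the others. Over the 34 microglial libraries, with each library expressed as its deviation from its group mean on the TMM-scaled log2 axis, the 21 pairs of members had Pearson correlations between 0.55 and 0.82, with a median of 0.71. The median over all pairs of features was 0.01. In bulk libraries the 21 correlations ran from 0.01 to 0.86 with a median of 0.58, beside 0.03 over all pairs. Within the bulk groups the median was 0.75 at P6, 0.43 at P15 and 0.33 at 8W, with the lowest pairs at -0.63 at P15 and -0.20 at 8W, and 17 and 20 of the 21 pairs lay above 0 at these ages. The bulk library of P6 female mouse 5 carried part of this, since without that mouse, a setting added after the data were seen, the median was 0.46 at P6 and 0.40 over the other 33 bulk libraries. These are descriptions over libraries that share their scaling and depth.

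**Figure D5:**
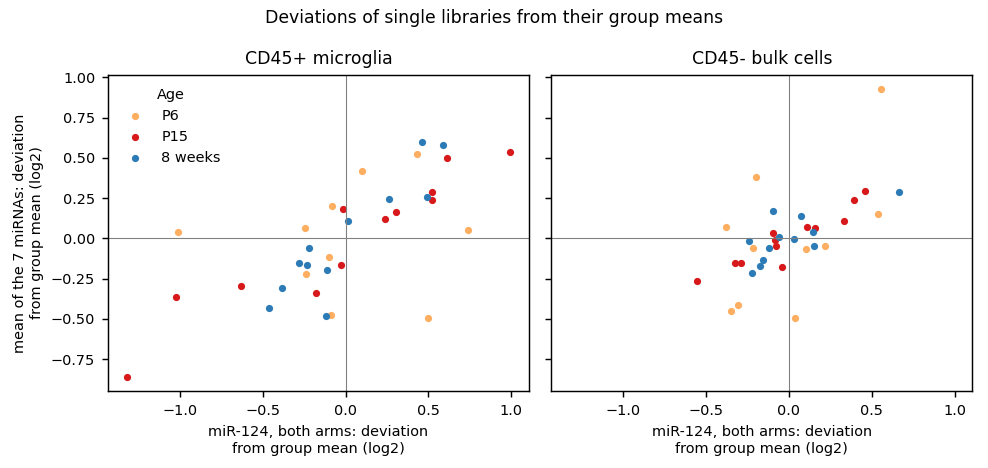
Mean of the 7 members against miR-124 (mean of both arms with equal weight), each as a deviation from the group mean in log2 units. Points are the 34 microglial and the 34 bulk libraries, coloured by age. In microglia the P15 and 8-week points lie along a rising line (Pearson r = 0.94 and 0.90) and the P6 points do not (0.06).

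The mean deviation of the members moved with miR-124 in microglial libraries, with a Pearson r of 0.70 over all 34. Within ages r was 0.06 at P6 (n = 10), 0.94 at P15 (n = 12) and 0.90 at 8W (n = 12). Each marker list entered as the mean deviation of its arms, with equal weight. In P6 microglia miR-124-3p averaged 23925 CPM and miR-124-5p 47.2 CPM, so the rare arm weighed as much as the abundant one. The part of each arm in these correlations was not tested. Over all 34 microglial libraries r was also 0.69 with miR-9 and 0.60 with the oligodendrocyte miRNAs, and -0.44 with the myeloid miRNAs. At P6, P15 and 8W it was 0.38, 0.90 and 0.55 with miR-9. With the oligodendrocyte miRNAs it was -0.004, 0.77 and 0.80, and with the myeloid miRNAs -0.13, -0.60 and -0.49. Without P6 female mouse 5 the P6 value in microglia was 0.53 with the oligodendrocyte miRNAs and -0.19 with miR-124. In bulk libraries r was 0.63 with miR-124 and -0.79 with the oligodendrocyte miRNAs. At P6 the latter reached -0.92, beside -0.50 at P15 and -0.55 at 8W. The bulk library of P6 female mouse 5 stood at the extreme, with a deviation of 0.93 for the members and -0.996 for the oligodendrocyte miRNAs in log2 units. Without that mouse the correlation with the oligodendrocyte miRNAs was -0.79 at P6 and -0.64 over 33 bulk libraries. The bulk correlation with miR-124 was 0.56 at P6, 0.93 at P15 and 0.74 at 8W. Without the same mouse it was 0.11 at P6 and 0.56 over 33 libraries. Within bulk ages other lists varied. At P6, P15 and 8W r was 0.28, 0.79 and 0.17 with miR-9, and 0.25, 0.39 and -0.70 with the myeloid miRNAs. With the endothelial miRNAs r was 0.20, -0.83 and -0.38, and with the erythroid miRNAs -0.31, 0.89 and -0.60. The part of these cell type markers in the members' spread was not tested.

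Between the fractions of a mouse the deviations were correlated to different extents over 34 mice. The r was 0.64 for miR-129-2-3p and between 0.09 (miR-128-3p) and 0.38 (miR-137-3p) for the other 6. The miRNAs most alike to the mean of the 7 members over all 68 libraries were miR-127-3p (Pearson r = 0.97), miR-124-3p (0.97), miR-300-5p (0.97), miR-136-3p (0.97) and miR-668-3p (0.96), over libraries that include both fractions. Over the 34 bulk libraries of all ages, miR-128-3p was closest to miR-668-3p (0.93) and miR-124-3p (0.92), and miR-129-2-3p to miR-1839-3p (0.96) and miR-1843a-3p (0.96). miR-138-5p was closest to miR-3068-5p (0.90) and miR-1199-5p (0.89), and miR-218-5p to miR-181a-5p (0.90) and miR-668-3p (0.89). Of these miR-1199-5p was rare, at 0 to 9.22 CPM in the bulk libraries. For miR-129-5p the closest were miR-139-3p (0.83) and miR-668-3p (0.82), for miR-137-3p they were miR-540-5p (0.88) and miR-708-5p (0.85), and for miR-153-3p they were miR-411-5p (0.89) and miR-708-3p (0.88).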

How the data were processed

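The authors trimmed reads with fastp 0.20.0 and counted them with miRDeep2 against miRBase and GRCm38, and what they deposited are raw read counts, whole and without normalisation. The counting lists a miRNA once per precursor, so of repeated names (79 of 1885) the row with the largest total was kept. For miR-138-5p the second row held 84.2% of the first, and for miR-128-3p, miR-129-5p and miR-218-5p at least 95.9%. Groups, sexes and mouse numbers came from the sample titles.

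The authors removed 1 mouse as an outlier. It was inferred from their source data to be P6 female mouse 6, which remains uncertain, and its 2 libraries were left out of 70. A feature was tested if 5 or more libraries held 1 CPM or more of it, which 1072 did. TMM scaling came from edgeR 4.0.16 and the voom fit of 12 groups of age, sex and fraction from limma 3.58.1, in R 4.3.3. Mouse was a random block (correlation 0.124), since both libraries of a mouse came from the same brain. Deviations from group means had a mean r of 0.07 within mice and -0.02 between mice. Contrasts were averaged over sexes and tested with TREAT beyond a log2 fold change of 1, with Benjamini-Hochberg adjustment over all features at 0.05. CPM values and ranges are unscaled, and fold changes are TMM-scaled. The fit was tested on simulated counts. Mature sequences came from RefSeq and gene overlaps from GENCODE M21.

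The members, the other arms and the neuronal and marker lists were chosen with earlier results of these data known. All members and the other arms are named, the further neuronal miRNAs by counts and extremes, and the most alike miRNAs by Pearson r. Other tests tried were the moderated one against no change, edgeR's glmTreat and DESeq2 1.42.0 with the same threshold. Other settings were no replicate block, mouse as a fixed replicate block, library size alone, size factors of DESeq2, every feature kept, a filter on 10 counts in 12 libraries, P6 female mouse 6 included, rows of a name summed, and each of 34 mice left out.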

Additional observations from a re-analysis of the deposited data

Results flagged for a closer look

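In groups of age, sex and fraction with 4 to 6 libraries, Dixon's test marked 9 of 84 combinations of a member and a group. Chance alone marks about 1 in 20 groups. The combinations are not independent, since correlated members share libraries and several marks fell on the same mice, so the marks cannot be set against that rate. The bulk library of P6 female mouse 5 stood above the other 3 of its group for miR-137-3p (11690 CPM, others 3040 to 4443), miR-153-3p (7162 CPM, others 2653 to 3203) and miR-218-5p (7189 CPM, others 3799 to 4374), and its microglial library for miR-128-3p (535 CPM, others 273 to 309). The microglial library of 8W male mouse 3 was high for miR-128-3p (836 CPM, others 340 to 523) and miR-129-2-3p (913 CPM, others 275 to 431). In bulk cells the high values were miR-128-3p in P15 male mouse 6 (2310 CPM, others 1420 to 1746) and miR-138-5p in 8W female mouse 2 (17577 CPM, others 10993 to 13258) and in 8W male mouse 6 (15290 CPM, others 11101 to 12372).

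The change from P6 to 8W differed between the fractions for 3 of the further neuronal miRNAs. The difference of the log2 fold changes, microglia minus bulk cells, was -2.18 for miR-132-3p, -2.005 for miR-329-3p and -1.86 for miR-495-3p (limma TREAT interaction, adjusted p = 0.000669, 5.34e-05 and 0.00745).

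The microglial library of P6 female mouse 6, outside the comparisons, lay above all 10 other P6 microglial libraries for each member. It held 962 CPM of miR-128-3p (others up to 535), 215 of miR-129-5p (202), 404 of miR-129-2-3p (261), 2960 of miR-137-3p (2196), 2846 of miR-138-5p (2453), 3199 of miR-153-3p (1674) and 3166 of miR-218-5p (1574). Its myeloid miRNAs summed to 8125 CPM, where the other libraries held 18451 to 44009, and its miR-124 to 46607 CPM, where they held 18187 to 39634. Its miR-9 (260852 CPM, others up to 204911) and its oligodendrocyte miRNAs (1483 CPM, others up to 1020) were also above all others, whereas its endothelial, erythroid and mural markers lay within their range. In its bulk library 6 of the 7 members lay within the range of the other P6 bulk libraries.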

How the results depend on the processing

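The 7 lower calls in microglia at each age held under every alternative run, and no call of a member changed with no replicate block. With mouse as a fixed replicate block, which was run for the fraction comparisons and the interaction only, none of those calls changed (7 of 7 lower at each age with either). The age comparisons depended on settings. Tested against no change, 3 members were higher and 2 lower in bulk cells from P6 to P15, 4 higher from P15 to 8W and 6 from P6 to 8W, where 38.8%, 50.7% and 66.2% of all features differed. In microglia 4 were higher and 1 lower from P6 to P15, 4 higher from P15 to 8W and 5 from P6 to 8W, where 34.1%, 37.2% and 53.9% differed, and in the interaction 2 were lower, where 53.6% differed. The higher count in bulk cells from P6 to P15 was 1 in place of 0 without a filter, with the filter of at least 10 counts, with library size alone and with DESeq2 size factors, and 0 to 1 with single mice left out. From P6 to 8W it was 1 in place of 2 in DESeq2 and with library size alone, and 2 to 3 with mice left out. In microglia from P6 to 8W it was 2 in edgeR, 0 with library size alone and 0 to 2 with mice left out.

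None of the reversed estimates had been called by the 2-fold test, but those of miR-218-5p had been called higher against no change. In bulk cells from P15 to 8W, library size alone, which moved the median of all features by -0.47, gave -0.23 for miR-129-5p, -0.24 for miR-137-3p, -0.39 for miR-138-5p and -0.017 for miR-218-5p. miR-138-5p was also -0.080 in DESeq2, -0.087 with DESeq2 size factors, -0.073 with rows summed and -0.011 to 0.12 with mice left out. miR-137-3p in bulk cells from P6 to 8W ran from -0.33 to 0.041 with mice left out. In microglia from P6 to 8W, library size alone (median moved by -0.46) gave -0.30 for miR-153-3p and -0.011 for miR-218-5p, and miR-153-3p was -0.011 with P6 female mouse 6 included. The interaction of miR-137-3p was 0.10 in edgeR, 0.15 in DESeq2, 0.040 without a filter and -0.10 to 0.10 with mice left out, and that of miR-138-5p -0.16 to 0.032. The cause of these shifts was not tested. The log2 ratio of miR-129-2-3p to miR-129-5p rose by 1.77 to 1.89 in bulk cells and 0.91 to 1.08 in microglia with mice left out, and by 1.81 and 0.96 with P6 female mouse 6 included, settings added after the data were seen. Rare arms had few counts, such as miR-128-2-5p with at most 11 in a library, whereas each member held at least 137. The effect of depth was not tested.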
